A study of Mus musculus with 4 samples.

Results

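The 83 genes described here are named for proteins of the cytosolic ribosome or as relatives of such proteins. They were chosen by name, as protein-coding genes with a symbol of the form Rpl or Rps and a number, together with Rplp0, Rplp1, Rplp2 and Rpsa. All 83 are among the 54842 gene rows of the count table, and 6 further rows with a matching symbol (Rps4l among them) were left out because the annotation lists them as pseudogenes. The study compared wt MEF cells with Top2β-null MEF cells to ask about a topological role in the transcription of satellite repeats. MEF cells are cultured mouse embryonic fibroblasts, and both genotypes were untreated. Total RNA was depleted of ribosomal RNA and sequenced from 2 libraries of each genotype. The Top2β-null cells were derived from knockout mice. The paper cites an earlier study for its MEF cells but does not say whether the wt cells of this comparison are the same. The part of a difference in origin was not tested. The labels do not say whether the libraries of a group are separate cultures, and the p-values measure only the spread between these libraries, which may be technical.

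The library totals lay between 133116830 and 149647278 counts. Top2b, the targeted gene, was measured at 18259 and 18465 normalized counts in wt and at 3879 and 3789 in Top2β-null cells, or 20.9% of the wt mean (log2 fold change -2.26 ± 0.03 (SE), adjusted p = 6.6e-19). Of 10 fibroblast markers 8 had a mean above 100 normalized counts, while Fap and Lum stayed at or below 4.0. The markers did not move one way. Col1a1, Col3a1 and Vim were lower in both Top2β-null libraries, whereas Dcn (226.1 and 223.1 normalized counts in wt, 7053 and 7239 in Top2β-null cells), Thy1 (4236 and 4367 against 17784 and 18440), Pdgfrb (2936 and 3000 against 10857 and 10980) and Pdgfra (442.1 and 481.0 against 1016 and 1048) were higher. The summed fibroblast markers lay between 872018 and 887928 in wt and between 547614 and 552820 in Top2β-null libraries, and the part of this difference in the values below was not tested. The germ cell markers Dazl and Tex101, the leukocyte marker Tyrobp and the muscle marker Myh1 were at 0 in all 4 libraries. The summed endothelial markers lay between 121.1 and 127.5 normalized counts in wt and between 242.3 and 253.5 in Top2β-null libraries, with Kdr at 71.7 and 68.6 against 203.0 and 205.0. The other sums were lower in Top2β-null libraries, between 67.6 and 70.5 against 19.7 and 19.8 for epithelial markers, between 269.5 and 301.8 against 118.9 and 141.9 for muscle markers, between 199.9 and 204.9 against 159.5 and 167.4 for germ cell markers, and between 14.5 and 15.1 against 5.9 and 8.3 for leukocyte markers. The part of these differences in the values below was not tested either.

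A ribosome is built from a small subunit (40S), which reads the mRNA, and a large subunit (60S), which joins amino acids. Each subunit holds ribosomal RNA and a set of proteins of which most are present in a single copy, so their mRNAs are made at high and similar levels in growing cells. The mRNAs begin with a run of pyrimidines, the terminal oligopyrimidine (TOP) motif, through which mTOR controls their translation. Most of the genes have many processed pseudogenes, which arose when the spliced mRNA was copied back into the genome, and many have introns that hold small nucleolar RNAs (snoRNAs), the guides for chemical modification of ribosomal RNA.

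The ribosomal protein genes took a slightly smaller share of the counts in Top2β-null cells. Their share of all counts on genes reached 3.63% and 3.66% in wt cells, against 3.34% and 3.37% in Top2β-null cells. Both Top2β-null libraries lay below both wt libraries, with a difference of -0.29 percentage points against a pooled SD of 0.020. The exact two-sided permutation test gave p = 0.33, the smallest value that 2 libraries against 2 can give. The small-subunit genes held 1.52% ± 0.0012 (SD, n = 2) of the gene counts in wt cells, against 1.42% ± 0.012 (SD, n = 2) without Top2β. The large-subunit genes with the stalk held 2.10% ± 0.016 (SD, n = 2) and 1.91% ± 0.011 (SD, n = 2). The log2 ratio of the summed small-subunit to the summed large-subunit counts came to -0.47 and -0.48 in wt cells, against -0.43 and -0.43 in Top2β-null cells. The groups did not overlap in this ratio either, and its difference of 0.04 had an exact p = 0.33. In these bulk samples a change in the RNA of each cell and a change in the mix of cells cannot be told apart.

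Of the 83 genes, 81 passed the filter of 10 counts in at least 2 libraries, and 80 had a mean above 100 normalized counts. At an adjusted p below 0.05 in edgeR's quasi-likelihood test, 14 genes were higher and 47 were lower in Top2β-null cells, and 20 did not pass. The background was high, since 66.4% of all 25085 genes tested passed the same threshold (32.8% higher and 33.7% lower). Among the 2494 genes with a mean above 10000 normalized counts, where most ribosomal protein genes lie, 38.7% were higher and 49.2% were lower. Scaling to the total count changed the split to 25 higher and 37 lower genes, and without the first Top2β-null library it was 23 higher and 42 lower. The direction of small changes near 0 therefore depends on the scaling. The normalized counts of the groups did not overlap for 71 of the 81 genes, beside 81.9% of all genes tested.

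By the cut-offs of the study (an adjusted p below 0.05, a mean above 100 and an absolute log2 fold change above 1), 0 genes were higher and 2 were lower, Rpl29 and Rpl3. These cut-offs called 10.8% of all genes tested (5.52% higher and 5.25% lower) and 8.98% of the genes with a mean above 10000. With DESeq2 the counts were also 0 and 2. With the counts of near-identical copies, described further on, added to each member, 1 was lower, Rpl29 (log2 fold change -1.15 in place of -3.16), and Rpl3 (-0.82 in place of -1.20) no longer passed. The median log2 fold change of the 80 genes with a mean above 100 was -0.12, and it was -0.02 over the 16656 genes of all kinds above that mean. Under scaling to the total count the median of the members was -0.047, without the first Top2β-null library it was -0.077, and with the neighbour median described further on taken away it was -0.076. The middle 50% of the members lay between -0.38 and 0.03, whereas that of all genes lay between -0.38 and 0.33.

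**Figure D1:**
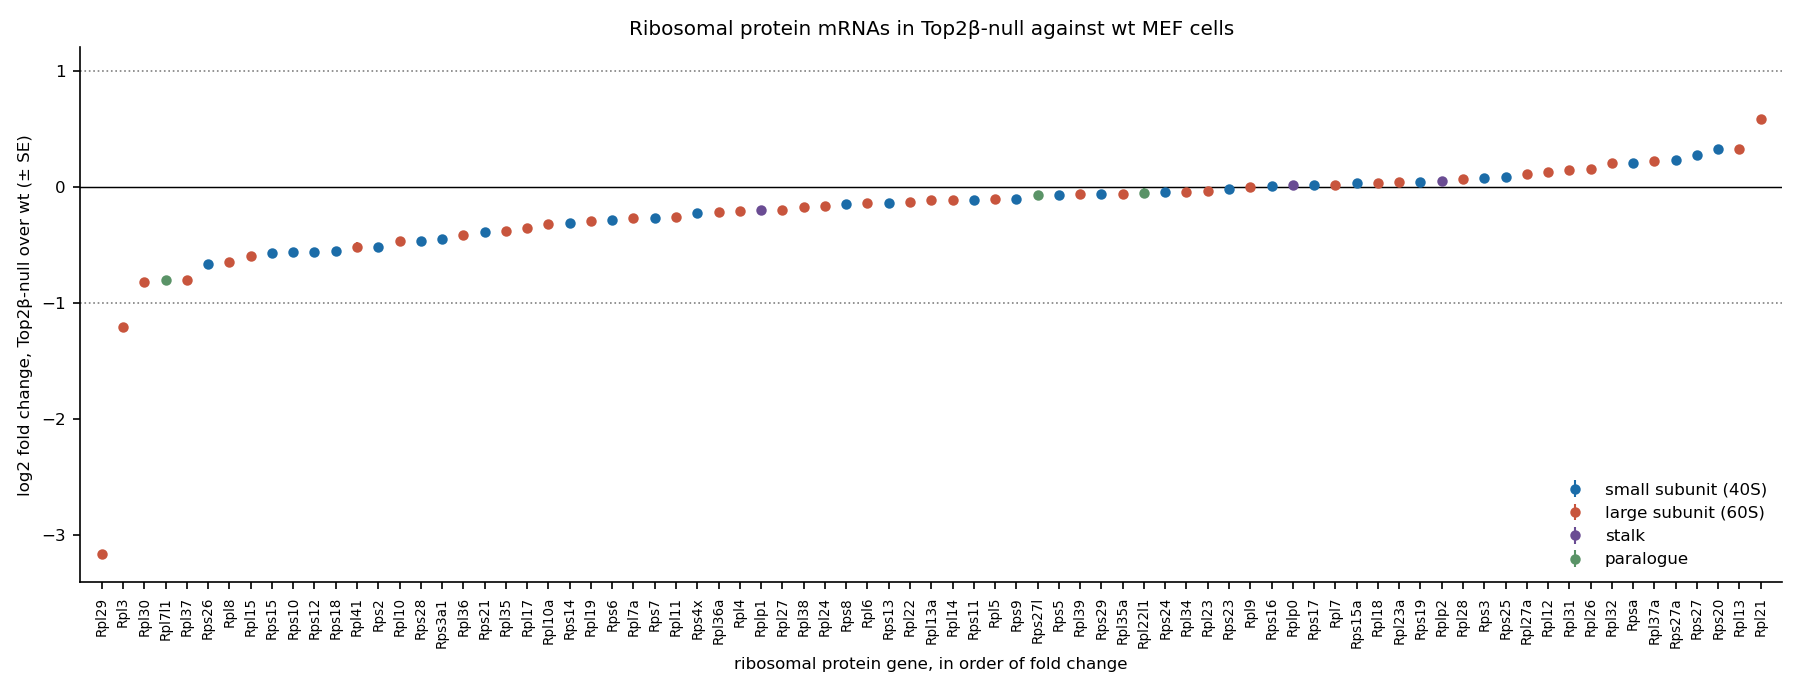
Log2 fold change of each of 79 ribosomal protein genes in Top2β-null over wt MEF cells, in order of size, with the SE as bars (mostly smaller than the points) and colours for the small subunit, the large subunit, the stalk and the paralogues. Dotted lines mark a log2 fold change of -1 and 1; Rpl29 at -3.16 and Rpl3 at -1.20 lie below them, and Rpl21 at 0.59 is the highest.

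Levels were compared between genes per kilobase of the principal mRNA. Across the 77 genes of the standard subunits, the median was 49753 normalized counts per kilobase in wt and 45661 in Top2β-null cells. These levels were correlated between the 2 genotypes, with Pearson's r = 0.88 across the 77 genes on a log2 scale and r = 0.95 without Rpl29. This is a description across genes measured in the same libraries. Ordered by the mean of both genotypes, over the 80 members with a mean above 100 normalized counts (paralogues included), the highest gene was Rps2, a small-subunit protein at the mRNA entry channel, with 253397 per kilobase in wt and 177920 in Top2β-null cells. It was followed by the stalk genes Rplp1 (166292 and 145265) and Rplp0 (131013 and 132770). In wt cells alone Rpl8 (144215) and Rps15 (142189) lay above Rplp0. The lowest of the 80 were Rpl22l1 (4531 and 4381), Rpl22 (5447 and 5005) and Rps15a (5438 and 5577). The mRNA length used for Rps15a was 5179 nt and for Rpl22 2051 nt, so their low values per kilobase rest in part on long annotated transcripts.

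Among the 43 large-subunit genes, 8 were higher, 26 were lower and 9 did not pass, with a median log2 fold change of -0.14. Rpl29, which encodes a small basic protein on the surface of the large subunit, stood apart from the others. It had 41903 and 44438 normalized counts in wt and 4832 and 4815 in Top2β-null libraries, 11.2% of the wt mean (log2 fold change -3.16 ± 0.03 (SE), adjusted p = 1.1e-19). The next was Rpl3, which reaches into the peptidyl transferase centre, with 129894 and 132865 in wt and 57823 and 56521 in Top2β-null libraries (log2 fold change -1.20 ± 0.03 (SE), adjusted p = 2.4e-15). For each gene the summed counts of its near-identical copies went the other way, though not those of every copy, as described further on.

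Rpl30 was at 36765 and 37267 in wt and at 21153 and 20883 in Top2β-null libraries (log2 fold change -0.82 ± 0.02 (SE), adjusted p = 6.2e-14). Rpl37, a zinc-binding protein of the large subunit, was at 44163 and 46485 against 25796 and 26446 (log2 fold change -0.80 ± 0.03 (SE), adjusted p = 6.1e-13). In each of them the Top2β-null libraries lay far below the wt libraries. Rpl8, which lies near the peptidyl transferase centre, was at 147170 and 147029 in wt and at 94161 and 93768 in Top2β-null libraries (log2 fold change -0.65 ± 0.03 (SE), adjusted p = 4.0e-12).

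On the other side was Rpl21, with 23875 and 25298 normalized counts in wt and 36986 and 36958 in Top2β-null libraries, 150.4% of wt (log2 fold change 0.59 ± 0.03 (SE), adjusted p = 2.6e-11). Rpl13 had 74969 and 74684 in wt and 93472 and 95001 in Top2β-null libraries, 1.26-fold more (log2 fold change 0.33 ± 0.03 (SE), adjusted p = 1.4e-08). Rpl37a (log2 fold change 0.23) and Rpl32 (0.21) were the other large-subunit genes among the 8 highest members. Rpl9 differed least, with 50054 and 49377 in wt and 49531 and 50130 in Top2β-null libraries (log2 fold change 0.003 ± 0.03 (SE), adjusted p = 0.919), and its groups overlapped.

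Rpl5 and Rpl11 form a particle with 5S ribosomal RNA that can bind Mdm2, the ubiquitin ligase of p53. Rpl5 was at 72283 and 72391 normalized counts in wt and at 67136 and 67595 in Top2β-null libraries, 93.1% of wt (log2 fold change -0.10 ± 0.03 (SE), adjusted p = 0.00252). Rpl11 was at 41089 and 43435 in wt and at 35322 and 35601 in Top2β-null libraries, 83.9% of wt (log2 fold change -0.25 ± 0.03 (SE), adjusted p = 1.1e-06). Both fell by small amounts, and the call for Rpl5 was lost under scaling to the total count (log2 fold change -0.03, adjusted p = 0.31) and without the first Top2β-null library (log2 fold change -0.06, adjusted p = 0.0709). Rpl10, needed for the joining of the subunits, fell to 72.4% of wt (78655 and 79102 against 56816 and 57358, log2 fold change -0.47, adjusted p = 1.4e-10). Rpl38, which supports the translation of Hox mRNAs, was at 88.9% of wt (log2 fold change -0.17, adjusted p = 2.8e-05). Rpl13a, which has a role in silencing mRNAs after interferon, was at 92.6% (log2 fold change -0.11, adjusted p = 0.00074), a call that was lost under scaling to the total count (log2 fold change -0.04, adjusted p = 0.168).

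The stalk proteins recruit translation factors to the large subunit. Rplp0, their anchor, had 177421 and 178410 normalized counts in wt and 177700 and 182904 in Top2β-null libraries, and the groups overlapped (log2 fold change 0.02 ± 0.03 (SE), adjusted p = 0.59). Rplp2 was at 47771 and 44254 against 47732 and 47846, also with overlap (log2 fold change 0.05 ± 0.03 (SE), adjusted p = 0.151). Under scaling to the total count both passed (adjusted p = 0.0195 for Rplp0 and 0.00357 for Rplp2). Rplp1, the partner of Rplp2, fell from 83031 and 82928 to 71843 and 73132, 87.4% of wt (log2 fold change -0.20 ± 0.03 (SE), adjusted p = 7.8e-06).

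Of the 31 small-subunit genes, 6 were higher, 18 were lower and 7 did not pass, with a median log2 fold change of -0.10. No small-subunit gene passed the cut-offs of the study. Rps26, which contacts the mRNA at its exit and is mutated in Diamond-Blackfan anaemia, was lowest with 75144 and 76489 normalized counts in wt and 47151 and 48655 in Top2β-null libraries (log2 fold change -0.66 ± 0.03 (SE), adjusted p = 3.1e-12). Rps20 was highest with 32523 and 32119 in wt and 40459 and 40945 in Top2β-null libraries, 1.26-fold more (log2 fold change 0.33 ± 0.03 (SE), adjusted p = 6.6e-09). Rps27 followed with 19695 and 19430 against 23521 and 24069 (log2 fold change 0.28 ± 0.02 (SE), adjusted p = 4.8e-08). Rps27a, which is made as a fusion with ubiquitin, rose from 32007 and 31823 to 37648 and 37665, 1.18-fold (log2 fold change 0.24 ± 0.02 (SE), adjusted p = 3.2e-07). Rpsa, also known as a laminin receptor, rose from 177095 and 174582 to 200301 and 206965 (log2 fold change 0.21 ± 0.03 (SE), adjusted p = 1.2e-05).

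Rps6, the substrate of the S6 kinases, fell to 82.5% of wt (63690 and 63575 against 52453 and 52490, log2 fold change -0.28, adjusted p = 7.6e-08). Rps14, whose loss causes the anaemia of the 5q- syndrome, was at 81.1% of wt (log2 fold change -0.30, adjusted p = 5.4e-08). Rps19, the gene most often mutated in Diamond-Blackfan anaemia, was at 36104 and 36599 in wt and at 36982 and 38038 in Top2β-null libraries, and did not pass the test (log2 fold change 0.05 ± 0.03 (SE), adjusted p = 0.141), though it passed under scaling to the total count (log2 fold change 0.12, adjusted p = 0.00138). Rps3, which also has a role in DNA repair, was at 105.8% of wt (log2 fold change 0.08, adjusted p = 0.0126), and lost its call without either wt library (adjusted p = 0.103 and 0.108). Rps16 (log2 fold change 0.008) and Rps23 (-0.018) differed least among the small-subunit genes, and their groups overlapped.

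The paralogues are genes named as relatives of a ribosomal protein gene, several of them with an expression limited to certain tissues. Whether the product of each takes the place of its counterpart in the ribosome was not tested. Rpl7l1 fell from 20955 and 20460 normalized counts to 11627 and 12147 (log2 fold change -0.80 ± 0.03 (SE), adjusted p = 2.7e-13), whereas Rpl7 was at 51890 and 52697 against 53166 and 53041 (log2 fold change 0.02, adjusted p = 0.47). The log2 ratio of Rpl7l1 to Rpl7 was -1.31 and -1.36 in wt and -2.19 and -2.13 in Top2β-null libraries, a difference of -0.82. Rps27l, a p53 target gene, was at 95.4% of wt (log2 fold change -0.07 ± 0.03 (SE), adjusted p = 0.037), a call that did not hold with DESeq2 (adjusted p = 0.222), while scaling to the total count turned the value to 0.0016. Its log2 ratio to Rps27 was -1.21 and -1.18 in wt and -1.56 and -1.54 in Top2β-null libraries. In both pairs the groups did not overlap, and the exact test gave its smallest value, p = 0.33.

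Rpl22l1 was at 2500 and 2503 normalized counts in wt and at 2331 and 2506 in Top2β-null libraries, with overlap (log2 fold change -0.05 ± 0.04 (SE), adjusted p = 0.367), beside a fall of Rpl22 to 91.9% of wt (log2 fold change -0.12, adjusted p = 0.00138; 0.114 under scaling to the total count). Rpl3l, a gene of striated muscle, was near the detection limit at 17.2 and 18.4 normalized counts in wt and 10.4 and 6.9 in Top2β-null libraries (log2 fold change -1.03 ± 0.44 (SE), adjusted p = 0.0508). The testis genes Rpl10l and Rpl39l had no counts except 1 count of Rpl39l in the second Top2β-null library. Rpl39 itself did not pass the test (log2 fold change -0.06 ± 0.04 (SE), adjusted p = 0.161), and Rps4x, the counterpart of the excluded Rps4l, fell to 86.0% of wt.

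On several chromosomes the members lay on the same side of 0 as the other genes there, and on others they did not. For each chromosome the median log2 fold change was taken over all other protein-coding genes with a mean above 100. On chromosome 15, where the 479 other genes had a median of -0.62, all 4 members were lower (Rpl3, Rpl30, Rpl37 and Rpl8), with a median of -0.81. On chromosome 17, with a median of -0.47 over 587 other genes, all 7 members above that mean were lower, with a median of -0.51. On chromosome 10, with a median of -0.39 over 593 other genes, all 4 members were lower (median -0.56). Thus 15 of the 47 lower genes lay on 3 chromosomes, which held 15 of the 80 members above that mean. The 75th percentile of the other genes was also below 0 there, at -0.30 on chromosome 15, -0.19 on 17 and -0.11 on 10. The 14 members on chromosome 7, where the other genes had a median of 0.05, lay between -0.13 and 0.11. On chromosome 1, with a median of 0.13, the 3 members lay between 0.02 and 0.23. On chromosome 6 the other genes had a median of 0.38 and the single member, Rpl32, was at 0.21. On chromosome 9, by contrast, the other genes had a median of 0.08 and 5 of 7 members were lower (median -0.11). The medians of the other genes and of the members were 0.20 and 0.003 on chromosome 5 and 0.08 and -0.11 on chromosome 16.

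**Figure D2:**
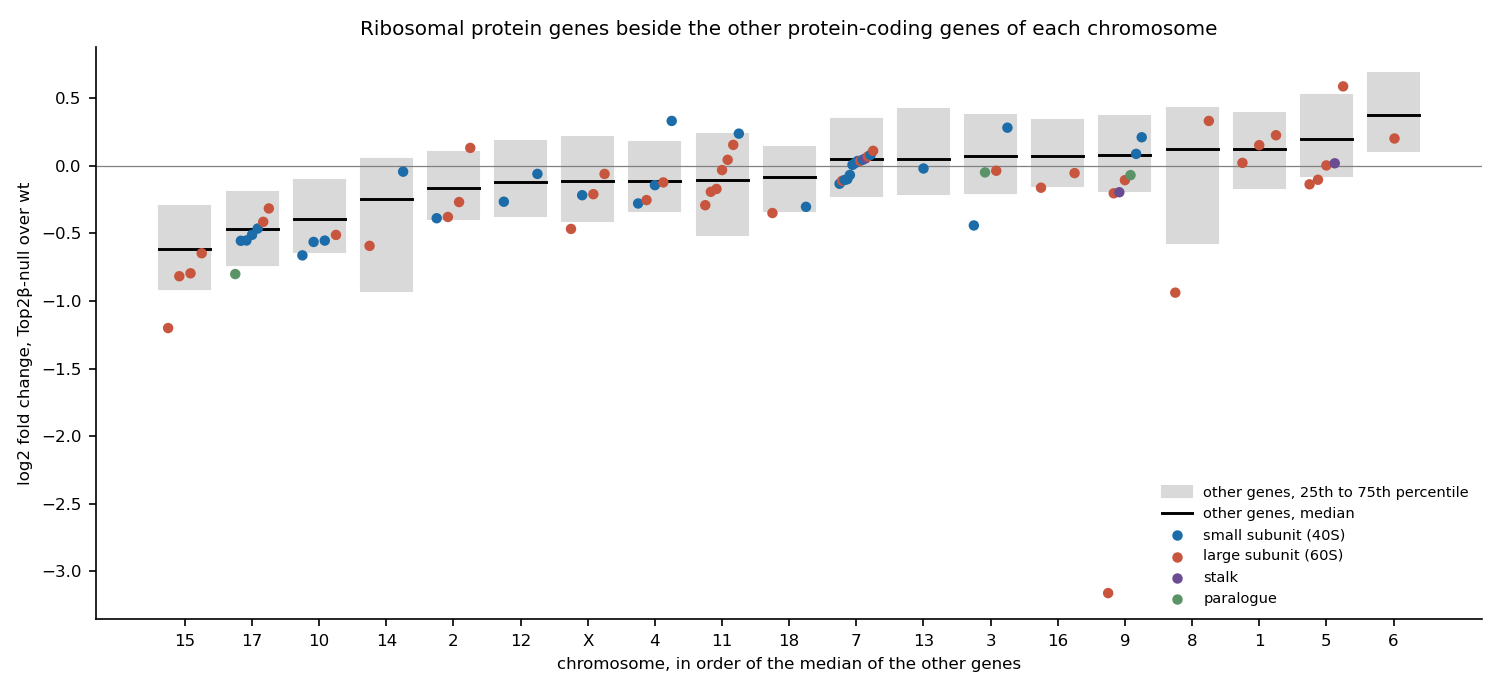
Log2 fold change of the ribosomal protein genes (points, coloured by subunit) over the other protein-coding genes of the same chromosome (grey box from the 25th to the 75th percentile, black line at the median), with chromosomes in order of that median. The members of chromosomes 15, 17 and 10 lie below 0, those of chromosome 7 lie between -0.13 and 0.11, and Rpl29 on chromosome 9 lies at -3.16.

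Members were also compared with other genes over shorter distances. For each member the median was taken over the 10 nearest other protein-coding genes with a mean above 100 on each side, which spanned a median of 2.41 Mb. Near the end of a chromosome fewer were found, so that 78 of 80 members had 20 neighbours, Rpl37 had 15 and Rps20 had 13. These neighbour medians lay between -0.87 (around Rpl8) and 0.61 (around Rpl21). Rpl21, the highest member at 0.59, thus lay -0.02 from its neighbours, and Rpl13 at 0.33 lay -0.15 from a neighbour median of 0.49. Rps12 (-0.55, neighbours -0.57) and Rpl10 (-0.47, neighbours -0.48) lay as close. Across 79 members (without Rpl29) the log2 fold change and the neighbour median had Pearson's r = 0.77 and Spearman's rho = 0.70. With Rpl29 included Pearson's r was 0.49 and rho was 0.67. These are descriptions across genes that share libraries, and neighbouring members share some of their neighbours. Taking the neighbour median away reduced the SD of the 79 values from 0.32 to 0.21.

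Relative to their neighbours, 54 of 80 members (67.5%) lay within 0.2 on the log2 scale. The same was found for 1088 of 2356 other protein-coding genes with a mean above 10000 normalized counts (46.2%). Those genes also differed more between the genotypes, with a median absolute log2 fold change of 0.29 against 0.20 for the 80 members. A fixed limit of 0.2 therefore does not compare how closely the 2 sets follow their neighbours. Across the 2356 genes the log2 fold change and the neighbour median had Pearson's r = 0.48 and Spearman's rho = 0.58. Farther from their neighbours were Rpl29 (-3.19), Rpl15 (-0.58), Rps3a1 (-0.55), Rpl3 (-0.52), Rpl37 (-0.49) and Rps14 (-0.47) below them, and Rpl12 (0.56) and Rps20 (0.34) above them. With the counts of the near-identical copies described further on added to the member, these distances were -1.18 for Rpl29, -0.33 for Rpl15, -0.16 for Rps3a1 and -0.14 for Rpl3. Rpl15, Rps3a1 and Rpl12 were chosen for naming after their values were seen. Rpl12 rose to 109.7% of wt (68048 and 68539 against 74412 and 75381, adjusted p = 0.00032) while its neighbours had a median of -0.42. The DNA content of the cells was not analysed here, and its part in the pattern by chromosome was not tested.

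**Figure D3:**
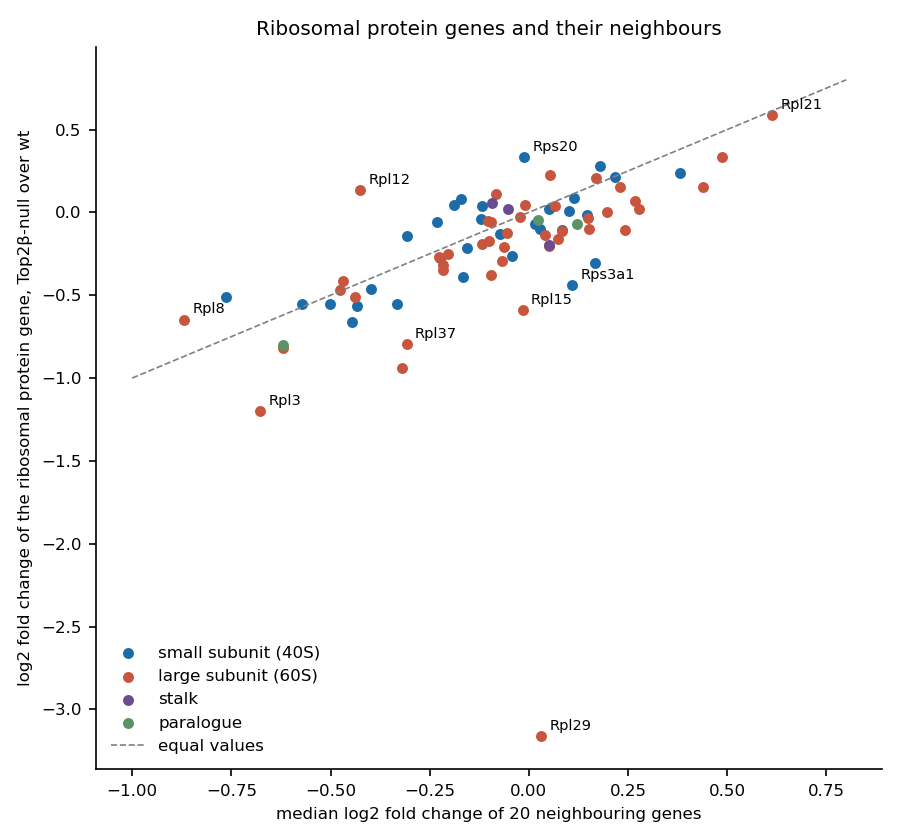
Log2 fold change of each ribosomal protein gene (vertical axis) against the median of its neighbouring protein-coding genes (horizontal axis; 20 for each gene except Rpl37 with 15 and Rps20 with 13), in Top2β-null over wt MEF cells, with a dashed line where both are equal. The points rise with the line but 58 of 80 lie below it, and 54 of 80 have the same sign as their neighbours. Rpl21 lies on the line at the upper end, and Rpl29 (-3.16, neighbours 0.03) lies farthest from it.

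The genes beside Rpl29 differed less. Of those within 100 kb, Dusp7 before it had a log2 fold change of 0.64, and Acy1, Abhd14a and Abhd14b after it had log2 fold changes of -0.43, -0.86 and 0.04. Rpl29 lies at chr9:106429454-106431568 (GRCm38, plus strand).

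The copies of Rpl29 together held more counts in the libraries where Rpl29 itself held fewer. A near-identical copy was taken as an annotated pseudogene that matches the coding sequence of a member at 95% identity or more over at least 80% of its length. By this rule 76 members had 539 copies, of which 227 had a mean above 100 normalized counts. The 30-base stretches printed next come from the coding exons of 4 members and from their most abundant copies that were higher in Top2β-null cells, to show how little separates a read of one from a read of the other. They are taken from the GENCODE transcripts (GRCm38) and run 5′ to 3′ along the mRNA, with the differing base in capitals.
Rpl29: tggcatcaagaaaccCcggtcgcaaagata
Gm13841: tggcatcaagaaaccAcggtcgcaaagata
Gm8210: tggcatcaagaaaccAcggtcgcaaagata
Rpl3: gggcttcctgcctcgCaagcgcagcagccg
Rpl3-ps1: gggcttcctgcctcgAaagcgcagcagccg
Rps3a1: tgaagtgagccttgcTgatctacagaatga
Rps3a3: tgaagtgagccttgcCgatctacagaatga
Rpl15: agctcgaagactgggAtacaaggctaagca
Gm10020: agctcgaagactgggGtacaaggctaagca

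The stretch of Rpl29 lies in exon 3 at chr9:106430327-106430356 (plus strand), that of Gm13841 at chr5:115802074-115802103 (minus strand) and that of Gm8210 at chr1:43189212-43189241 (plus strand). The stretch of Rpl3 lies in exon 2 at chr15:80082515-80082544 (minus strand) and that of Rpl3-ps1 at chrX:13202613-13202642 (plus strand). The stretch of Rps3a1 lies in exon 3 at chr3:86141363-86141392 (minus strand) and that of Rps3a3 at chr13:108670803-108670832 (plus strand). The stretch of Rpl15 lies in exon 2 at chr14:18270281-18270310 (minus strand) and that of Gm10020 at chr15:52478059-52478088 (minus strand). Counted from 1 at the first base of a stretch, the member and its copy differ by C16A in both copies of Rpl29, C16A in Rpl3-ps1, T16C in Rps3a3 and A16G in Gm10020.

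Over the whole coding sequence, counted from 1 at the start codon, both Gm13841 and Gm8210 differ from Rpl29 at the same 3 of 480 bases (C72A, C300T and T423C). Rpl3-ps1 differs from Rpl3 at 2 of 1209 bases (C57A and T786C), and Gm10020 from Rpl15 at 2 of 612 bases (A156G and C202A). Rps3a3 differs from Rps3a1 at 8 of 791 aligned bases. The reads were paired, each 150 bases long. Of all stretches of that length in the coding sequence, 80.5% were the same in Rpl3 and Rpl3-ps1, 57.7% in Rpl15 and Gm10020, 23.6% in Rpl29 and Gm13841, and 10.3% in Rps3a1 and Rps3a3. A single read of such a stretch cannot be assigned to one of the genes by its sequence. The shares are for 1 read of a pair, and the share of pairs, whose other read can hold a difference, was not computed.

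Gm13841 had 499.6 and 504.2 normalized counts in wt and 9996 and 10738 in Top2β-null libraries, 20.7-fold more (log2 fold change 4.37 ± 0.05 (SE), adjusted p = 1.5e-19). Gm8210 went from 35.3 and 31.9 up to 4329 and 4086 (log2 fold change 6.96 ± 0.08 (SE), adjusted p = 6.7e-19), and Gm14036 from 22.2 and 29.0 to 471.2 and 420.9 (log2 fold change 4.11). Other copies of Rpl29 went the opposite way, with Gm10709 from 207.9 and 275.3 to 6.2 and 0 normalized counts and Gm5561 from 276.6 and 292.7 to 71.5 and 84.2. All 26 copies of Rpl29 together held 1552 and 1629 normalized counts in wt and 15155 and 15606 in Top2β-null libraries. The sum of Rpl29 and its copies was 43499 and 46117 in wt and 19966 and 20401 in Top2β-null libraries (log2 fold change -1.15 ± 0.03 (SE), adjusted p = 6.0e-15). The fall of the sum was thus much smaller than that of Rpl29 alone, though its groups still did not overlap.

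Rpl3-ps1 rose from 5560 and 5427 normalized counts in wt to 20519 and 20556 in Top2β-null libraries, 3.74-fold (log2 fold change 1.90 ± 0.03 (SE), adjusted p = 3.1e-18). The other copies of Rpl3 were lower, with log2 fold changes between -1.64 (Rpl3-ps2) and -0.52 (Gm6035). With its 7 copies summed, Rpl3 had 137603 and 140326 in wt and 79248 and 77989 in Top2β-null libraries, a log2 fold change of -0.82 ± 0.03 (SE) (adjusted p = 2.0e-13) in place of -1.20. The sum no longer passed the study's cut-off of 1, and it lay -0.14 from the median of its neighbours.

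For Rps3a1, a small-subunit protein, the copy Rps3a3 rose from 1634 and 1489 normalized counts to 12341 and 12315 (log2 fold change 2.98 ± 0.04 (SE), adjusted p = 8.0e-19) and Rps3a2 from 744.9 and 802.7 to 4033 and 3902 (log2 fold change 2.36). Rps3a1 alone fell from 60765 and 62675 to 45843 and 45091 (log2 fold change -0.44 ± 0.03 (SE), adjusted p = 4.8e-10). Its sum with 6 copies was 64611 and 66457 in wt and 63402 and 62375 in Top2β-null libraries and did not pass the test (log2 fold change -0.06 ± 0.03 (SE), adjusted p = 0.0669). For Rpl15, Gm10020 rose from 106.0 and 113.0 to 4256 and 4251 (log2 fold change 5.28 ± 0.06 (SE), adjusted p = 7.3e-19) and Rpl15-ps2 from 217.0 and 241.5 to 2611 and 2532 (log2 fold change 3.49). Other copies were lower, among them Rpl15-ps3 (log2 fold change -1.40) and Gm10224 (-1.13) of Rpl15 and Gm13408 (-0.31) of Rps3a1. The log2 fold change of Rpl15 was -0.59 alone and -0.35 with its 12 copies.

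**Figure D4:**
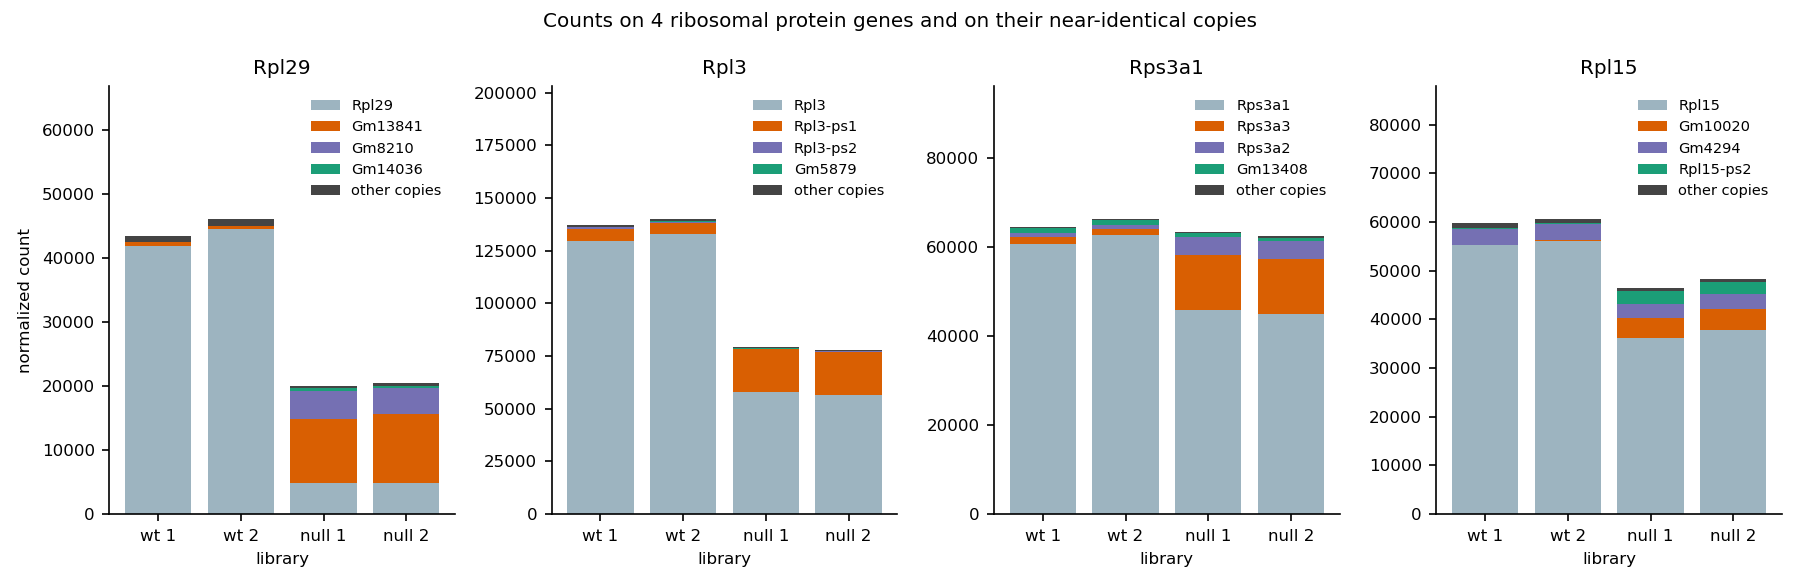
Normalized counts in each library (2 wt, 2 Top2β-null) on Rpl29, Rpl3, Rps3a1 and Rpl15 (grey-blue) with their near-identical copies stacked on top, the 3 most abundant in colours and the others in black. In Top2β-null libraries the copies together hold more and the member less. The summed Rps3a1 bars reach 62375 to 66457 in all 4 libraries, whereas those of Rpl29 reach 43499 and 46117 in wt against 19966 and 20401.

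Copies of other members differed too. Rps13-ps1 rose from 1531 and 1240 normalized counts to 4679 and 4540, and the log2 fold change of Rps13 was -0.13 alone (adjusted p = 0.00036) and 0.01 with its copies (adjusted p = 0.666). Gm6472 rose 2.38-fold, and Rps7 moved from -0.27 to -0.15. Rps15a-ps7 rose from 166.5 and 210.6 to 2097 and 2062, and Rps15a moved from 0.04 (adjusted p = 0.208) to 0.15 (adjusted p = 4.0e-05). The sum moved the log2 fold change by more than 0.1 in 7 of 81 members and by more than 0.2 in 4. Of the 227 copies with a mean above 100, 15 were higher and 9 were lower by the cut-offs of the study (10.6%). Of the 16656 genes of all kinds above that mean, 1385 were higher and 1317 were lower, which is a larger share. With all copies summed, 16 members were higher and 46 lower at an adjusted p below 0.05. The rule by which a read with several alignments was divided between genes is not given in the sources used here, and the part of read assignment in these values was not tested. A difference in the sequence of these genes between the cells was not tested either.

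Inside the introns of the members, 54 snoRNAs on the same strand had a mean above 100 normalized counts, in 29 hosts. Of these, 6 were higher and 21 were lower at an adjusted p below 0.05. Both directions together are a smaller share called than the 66.4% of all genes tested (32.8% higher and 33.7% lower), but the lower calls alone are not. The background has no such limit on the mean, and the difference in share was not tested. The snoRNAs are read from DNA in the same transcript as their host but are processed from the intron. The 6 hosts with a log2 fold change below -0.5 held 10 of them, all lower, with a median of -0.90. In Rpl3 (-1.20) they were Snord43 with 1349 and 1352 normalized counts in wt and 574.8 and 579.4 in Top2β-null libraries (log2 fold change -1.23 ± 0.06 (SE), adjusted p = 1.4e-11), Gm22077 (-1.36) and Snord83b (-0.91). Snord72 in Rpl37 fell from 521.8 and 516.8 to 265.1 and 303.1 (log2 fold change -0.87 ± 0.09 (SE), adjusted p = 2.5e-07). In Rps12 (-0.55) the 3 snoRNAs fell further than the host, with Snora33 at -1.01, Snord100 at -0.95 and Gm23130 at -0.88. In Rpl21 (0.59) both were higher, Gm25091 at 0.54 and Gm23202 at 0.40.

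The snoRNAs of Rps3a1 did not fall with their host. Rnu73b was at 338.1 and 348.7 normalized counts in wt and at 357.3 and 323.9 in Top2β-null libraries (log2 fold change -0.01 ± 0.09 (SE), adjusted p = 0.91), and Snord73a was at 166.5 and 154.5 against 164.7 and 164.4 (log2 fold change 0.04 ± 0.13 (SE), adjusted p = 0.83). In the other 23 hosts, 6 of 44 snoRNAs were higher and 11 were lower, with a median of -0.10. Across the 29 hosts, the median of the snoRNAs and the host's log2 fold change had Pearson's r = 0.86 and Spearman's rho = 0.74, as a description across genes in the same libraries. Short RNAs are poorly captured by libraries made for long RNA, and reads on a snoRNA can also come from the unspliced host transcript. Rpl29 held no snoRNA above the mean of 100.

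**Figure D5:**
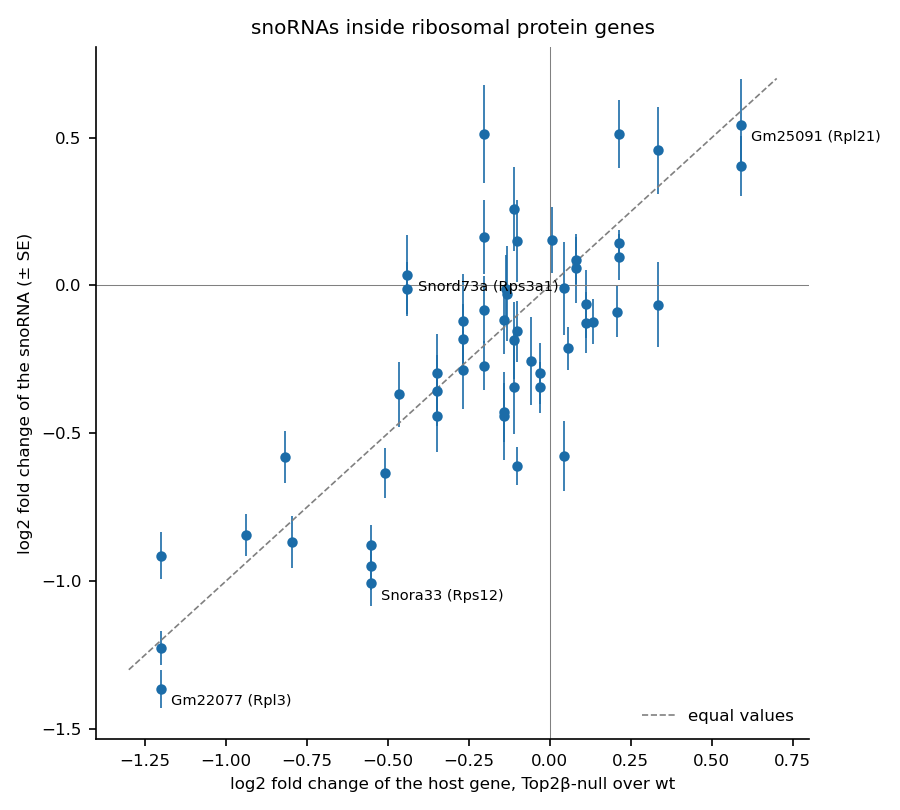
Log2 fold change of each of 54 snoRNAs (vertical axis, with SE) against that of the ribosomal protein gene that holds it (horizontal axis), in Top2β-null over wt MEF cells, with a dashed line where both are equal. The 10 snoRNAs of the 6 hosts below -0.5 lie between -1.36 and -0.58, and both snoRNAs of Rps3a1 lie near 0.

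Some parts of the ribosome fall outside the naming rule. Fau, a fusion that yields the small-subunit protein S30, was at 107.1% of wt (log2 fold change 0.10 ± 0.03 (SE), adjusted p = 0.0045; 0.19 without the first wt library). Rack1, a scaffold on the small subunit, was at 111.4% of wt (log2 fold change 0.16, adjusted p = 0.00012). Rpl36al, the paralogue of Rpl36a, fell to 78.4% (log2 fold change -0.35, adjusted p = 5.9e-07), and Rpl36a to 86.5%.

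Other lists of the same pathway are given by their counts at an adjusted p below 0.05, to be read against the background of 66.4%. That background covers all genes tested, whereas the listed genes, apart from the pseudogenes, all had a mean above 100. Among the 2494 genes with a mean above 10000 the share called was 87.8%, so a high share in a list can go with high expression. Of 78 mitochondrial ribosomal protein genes, 23 were higher and 38 were lower, with a median log2 fold change of -0.08. Mrps18b (-0.93) and Mrps34 (-0.90), both on chromosome 17, were lowest, and Mrpl53 (0.72) and Mrps25 (0.56), both on chromosome 6, were highest. Of 14 genes for RNA polymerase I and its factors, which make ribosomal RNA, 4 were higher and 9 were lower (median -0.22), with Znrd1 (-0.70) and Polr1c (-0.47) lowest and Taf1a (0.74) and Polr1a (0.34) highest. Of 37 ribosome assembly factors, 8 were higher and 25 were lower (median -0.26). Bop1, a factor of large-subunit assembly on chromosome 15, fell from 26335 and 27266 to 12422 and 12328 normalized counts (log2 fold change -1.11 ± 0.03 (SE), adjusted p = 2.2e-15). Eif6, which keeps the large subunit from joining too early, was at 52.0% of wt (log2 fold change -0.94), and Gtpbp4 (0.28) and Heatr1 (0.23) were highest.

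Of 13 other translation genes with TOP mRNAs, 3 were higher and 10 were lower (median -0.47), with the chromosome 15 genes Eif3e (-0.86) and Eif4b (-0.81) lowest and Eef1b2 (0.54) and Eef1g (0.22) highest. Of 14 genes for mTOR and regulators of these mRNAs, 4 were higher and 6 were lower (median -0.01). Mlst8, a subunit of mTOR complexes on chromosome 17, was lowest (-1.04, neighbours -0.61), followed by Tsc2 (-0.60, neighbours -0.73), while Tsc1 (0.54, neighbours -0.08) and Mtor (0.39, neighbours -0.11) were highest. Of 283 ribosomal pseudogenes with a name in -ps, 158 were tested, of which 19 were higher and 36 were lower.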

How the data were processed

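The 2 wt and 2 Top2β-null MEF libraries were made from total RNA after removal of ribosomal RNA. The authors used Trim Galore! for trimming, STAR for alignment to mm10 (multiple alignments allowed) and TEtranscripts for counting on Gencode genes and on families of repeats. The deposited table holds raw counts, not normalized. All columns were used, and libraries were assigned from the labels.

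Symbols, positions and transcripts came from GENCODE M21 (GRCm38), which matched 54409 of 54842 gene identifiers. Rows that reached 10 counts in 2 or more libraries (25085 genes, 1481 repeat families) were fitted with edgeR 4.0.16 in R 4.3.3 (TMM factors over genes and repeats, quasi-likelihood test, genotype as the only term), with Benjamini-Hochberg adjustment across the 26566 rows. The SE was taken from the log2 fold change and its F statistic. Normalized counts are counts divided by the effective library size and multiplied by its geometric mean over the 4 libraries. The spread between replicates exceeded counting noise in both groups, and every library was kept. Levels per kilobase used the principal mRNA of each gene. Copies were found with blastn 2.17.0. The kit marks strand, but the setting used for counting is not given in the sources used here, and 38 members share exon bases with another gene of any kind (15 with a protein-coding gene). Single ratios and shares were tested with the exact permutation test (scipy 1.17.1). The count test was checked on simulated data.

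Results for 1 member and for 1 gene outside the rule are not reported here. The members and lists were chosen with earlier results of these data known. Named are Top2b, the 8 members with the largest log2 fold change in each direction and the 3 with the smallest, the paralogues with their counterparts, the stalk genes, Rpsa, 10 members with other known roles, the 3 highest and 3 lowest per kilobase, the components outside the rule, and the 2 extremes in each direction of each list. Neighbour medians, copies and snoRNAs were added after seeing the data, and the genes named there were chosen after their values were seen. Alternatives were DESeq2 1.42.0, scaling to the total count, TMM over genes alone, other filters, the replicate number as a block, and leaving out each library.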

Additional observations from a re-analysis of the deposited data

How the results depend on the processing

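By the cut-offs of the study, 2 lower and 0 higher members were found with DESeq2, scaling to the total count, TMM over genes alone, both other filters and the replicate block. Leaving out each library in turn gave 2 to 3 lower members and 0 higher ones. With the copies summed, at both thresholds for a copy, 1 member was lower, Rpl29. At an adjusted p alone, 25 members were higher under scaling to the total count, which moved the median of all genes by 0.07. Leaving out each library gave 13 to 23 higher members (23 without the first Top2β-null library) and 42 to 48 lower ones. The median log2 fold change of the members was -0.047 under scaling to the total count, -0.076 with the neighbour median taken away, and between -0.14 and -0.077 without each library.

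The share of counts differed by -0.23 percentage points without the 5 members with most counts and by -0.24 with the copies added, and by -0.31 to -0.27 without each library. The log2 ratio of small-subunit to large-subunit counts differed by 0.04 to 0.05 without each library, and the medians of the log2 fold changes by 0.025. The ratio of Rpl3l to Rpl3 differed by 0.46 with 5 counts added and by -0.14 to 0.41 without each library, and that of Rpl22l1 to Rpl22 by -0.0086 to 0.15. The other ratios kept their direction without each library (Rpl7l1 -0.86 to -0.79, Rps27l -0.37 to -0.34, Rpl36al -0.18 to -0.11).

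Of 383 values of named genes under the other fits, 362 kept their direction and call, 5 changed sign, 10 gained and 6 lost a call. Of 256 without a library, 231 kept both, 10 changed sign, 9 gained and 6 lost a call. Members near 0 changed sign. Under scaling to the total count, Rps23 was at 0.052, Rps27l at 0.0016, Rpl22l1 at 0.022 and Rpl39 at 0.010, and with TMM over genes alone Rps23 was at 0.0013. With the copies summed, Rpl9 was at -0.0020 and -0.0024. Without each library, the ranges were -0.021 to 0.051 for Rpl9, -0.011 to 0.076 for Rps16, -0.034 to 0.041 for Rps23, -0.083 to 0.042 for Rpl22l1, -0.14 to 0.015 for Rpl39, -0.0037 to 0.060 for Rpl7 and -0.014 to 0.096 for Rplp2. The cause was not tested.

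The replicate numbers did not pair the libraries (correlation of deviations 0.021 over 17952 features). With the replicate block, 15 members were higher and 47 lower, the median was -0.12, and no named gene changed its call. The 2 libraries of each group limit the precision.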
